A study of Mus musculus with 6 samples.

Results

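A group of 40 gene entries was at least 2-fold higher, on the scale of FPKM + 1, in each of 3 mouse leukemia cell lines when the FGFR inhibitor BGJ398 was added. They were found among 17169 entries of the deposited table of FPKM values, a unit that divides sequenced fragments by transcript length and by all fragments of the library, so that levels can be compared between genes. An entry was taken when its mean over the 6 libraries reached 5 FPKM and its log2 ratio, log2((BGJ398 + 1) / (DMSO + 1)), was at least 1 in all lines. Of 9109 entries with that mean, 164 (1.8%) passed the ratio. Of these, 124 (7.14% of the 1736 such entries of that mean) carried symbols of classes that were set aside by name, such as olfactory receptors, predicted genes and cDNA clones, and the remaining 40 were 0.543% of the 7373 entries whose symbols were kept. In the opposite direction, 1202 of the 7373 entries (16.3%) had a log2 ratio of -1 or lower in all lines. Because the ratio chose the 40 genes, their ratios and DMSO values are described here without a test.

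The lines, named BBC, ZNF and BCRF8C, came from bone marrow of Balb/c mice that had developed SCLL (stem cell leukemia/lymphoma), a mouse model of blood cancers in which a fusion gene keeps the kinase of fibroblast growth factor receptor 1 (FGFR1) active. The study asked which transcripts depend on that kinase. Each line was cultured for 24 h with BGJ398 (infigratinib) or with DMSO, its solvent, and every combination of line and agent has 1 library, so no line had replicates. Read in the order in which the protocol lists them, the doses were 30 nM for BBC, 3 nM for ZNF and 1.5 nM for BCRF8C, and the effect of a dose cannot be told apart from that of its line. The fusion partner in each line is not given in the sources used here.

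FGFR1 fusion kinases signal through STAT5, ERK and phospholipase C gamma, and their inhibition takes growth and survival signals away from the leukemia cells. The 4 genes taken as markers of the group have different roles. Mid1 encodes a microtubule-bound ubiquitin ligase of the TRIM family that marks the catalytic subunit of the phosphatase PP2A for degradation, and Pkib encodes an inhibitor of the catalytic subunit of protein kinase A (PKA). Fgd4 encodes frabin, which binds actin and loads the small GTPase CDC42 with GTP, and Fstl1 encodes a secreted glycoprotein related to follistatin.

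The sequences before the start sites of these 4 genes are shown to let their promoters be compared. Each is the 250 bases upstream of the most upstream start in RefSeq on the build GRCm38.p6, read 5′ to 3′ on the gene's strand, at chrX:169684949-169685198 (plus strand) for Mid1, chr10:57631731-57631980 (plus strand) for Pkib, chr16:16599979-16600228 (minus strand) for Fgd4 and chr16:37776805-37777054 (plus strand) for Fstl1. Capitals mark the matches to 7 motifs that were searched on both strands.
Mid1: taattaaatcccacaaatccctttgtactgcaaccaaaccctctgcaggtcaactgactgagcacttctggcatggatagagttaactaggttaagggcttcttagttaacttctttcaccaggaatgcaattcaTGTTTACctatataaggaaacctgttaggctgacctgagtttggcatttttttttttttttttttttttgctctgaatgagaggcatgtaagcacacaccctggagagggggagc
Pkib: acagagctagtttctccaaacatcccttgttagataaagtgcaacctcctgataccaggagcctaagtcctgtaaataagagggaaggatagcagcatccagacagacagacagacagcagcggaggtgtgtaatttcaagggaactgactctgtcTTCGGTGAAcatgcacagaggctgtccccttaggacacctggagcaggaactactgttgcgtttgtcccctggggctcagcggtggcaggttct
Fgd4: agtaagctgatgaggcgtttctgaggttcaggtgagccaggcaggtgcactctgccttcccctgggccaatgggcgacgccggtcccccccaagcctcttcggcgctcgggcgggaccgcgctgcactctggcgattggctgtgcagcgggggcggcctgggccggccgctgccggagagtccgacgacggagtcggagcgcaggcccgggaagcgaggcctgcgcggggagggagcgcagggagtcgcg
Fstl1: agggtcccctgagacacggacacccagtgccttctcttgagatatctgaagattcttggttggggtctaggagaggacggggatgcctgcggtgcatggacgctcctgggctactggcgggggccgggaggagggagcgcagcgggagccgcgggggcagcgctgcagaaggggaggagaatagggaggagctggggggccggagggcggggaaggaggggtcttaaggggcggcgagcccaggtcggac

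The 4 promoters shown differed in the motifs they held. That of Mid1 held the forkhead motif GTAAACA, read on the other strand, with its first base 115 bases before the start. The promoter of Pkib held the STAT motif TTCNNNGAA, beginning 94 bases before the start. Those shown for Fgd4 and Fstl1 held none of the 7. Fgd4 has 3 starts in the RefSeq table, and the promoter of another of them held TATAAA, 191 bases before the start, and TGANTCA, 80 bases before it. Their base composition also differed, since the ratio of observed to expected CpG, over a window that added the first 50 bases after the start, was 0.140 in Mid1 and 0.323 in Pkib against 0.875 in Fgd4 and 0.684 in Fstl1.

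Across the group, 25 genes could be matched to 41 RefSeq promoters of 300 bases (250 before and 50 after a start). The motif TATAAA, at any place in the 300 bases and on either strand, was in 8 of the 41 (19.5%). This stood against 13.6% of all 32851 promoters in the table and 6.44% of the 7006 promoters of kept entries averaging 5 FPKM or more. TTCNNNGAA was in 6 (14.6%, against 8.3% and 6.74%), TGANTCA, the AP-1 motif, in 3 (7.32%, against 7.81% and 4.31%), and CACGTG, the E-box, in 2 (4.88%, against 7.15% and 10.6%). The ETS motif CCGGAAGT was in 2 (4.88%, against 3.89% and 9.62%), the cAMP response element TGACGTCA in 1 (2.44%, against 1.79% and 3.4%), and GTAAACA in 1 (2.44%, against 3.65% and 2.55%). The promoters of the group were poorer in CpG than those of the kept entries. The CpG ratio was below 0.6 in 31 of 41 (75.6%), against 23.5% of the promoters of kept entries and 64.2% of all promoters. The kept entries were not matched to the members in level, since their median DMSO mean was 22.4 FPKM against 3.27 FPKM for the members. Promoters of 1 gene overlap or lie close to each other, so these counts are not of independent sequences. Both overlapping promoters of Ctla2a held TATAAA, for example. The place of a motif was not part of the count, so the hits of TATAAA are not a count of TATA boxes. Its hit in Pcdh15 began 33 bases before the start and that in Wdr17 62 bases before it. The other hits of TATAAA in the group lay further upstream.

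All values of the markers were higher with BGJ398 within each line. Mid1 (ENSMUSG00000035299; X:166123129-166443668 on the authors' build NCBIM37) stood at 226 FPKM in DMSO and 656 FPKM with BGJ398 in BBC, at 6.27 and 213 FPKM in ZNF, and at 1.43 and 77.0 FPKM in BCRF8C. The DMSO library of BBC was above the BGJ398 libraries of ZNF and BCRF8C, so the agents overlapped between lines for Mid1. Its log2 ratio reached 1.53 in BBC, 4.88 in ZNF and 5.01 in BCRF8C, with a mean of 3.81 ± 1.97 (SD, n = 3 lines). Fgd4 (16:16417010-16600642) went from 45.3 to 167 FPKM in BBC, 9.89 to 83.2 FPKM in ZNF, and 7.15 to 152 FPKM in BCRF8C, with every BGJ398 library above every DMSO library and the log2 ratio averaging 3.01 ± 1.19 (SD, n = 3 lines).

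Pkib (10:57351787-57460918) stood at 16.7 FPKM in DMSO and 50.7 FPKM with BGJ398 in BBC, at 1.96 and 31.4 FPKM in ZNF, and at 2.54 and 60.5 FPKM in BCRF8C. Fstl1 (16:37776959-37836600) went from 24.0 to 52.1 FPKM in BBC, 3.03 to 37.2 FPKM in ZNF, and 3.31 to 89.8 FPKM in BCRF8C. For both genes the DMSO library of BBC was the highest of the 3, and the lowest BGJ398 library, that of ZNF, still lay above it. The mean log2 ratio was 3.04 ± 1.33 for Pkib and 2.91 ± 1.68 for Fstl1 (SD, n = 3 lines). In the BBC line Fstl1 was close to the threshold, at 1.09.

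Other regulators of signalling in the group were Appl2, Grk4 and Tnfrsf22. Appl2, which encodes an adaptor on early endosomes, stood at 28.3 FPKM in DMSO and 98.1 FPKM with BGJ398 in BBC, at 17.1 and 59.1 FPKM in ZNF, and at 24.4 and 286 FPKM in BCRF8C. Its DMSO values were close to each other, and the BGJ398 library of BCRF8C stood well above the rest. Tnfrsf22, a decoy receptor for the death ligand TRAIL, went from 49.8 to 103 FPKM in BBC, 16.3 to 77.4 FPKM in ZNF, and 17.9 to 165 FPKM in BCRF8C, with no overlap of the agents. Grk4, a kinase of G-protein-coupled receptors, gave log2 ratios averaging 1.89 ± 0.61 (SD, n = 3 lines).

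Secreted proteins and matrix proteins formed the next set, Fstl1 included. Ltbp1, which encodes a protein that holds latent TGF-beta in the matrix, stood at 13.5 FPKM in DMSO and 39.9 FPKM with BGJ398 in BBC, at 3.06 and 35.7 FPKM in ZNF, and at 4.83 and 51.4 FPKM in BCRF8C. Lpl, lipoprotein lipase, went from 4.57 to 15.3 FPKM in BBC, 0.818 to 11.6 FPKM in ZNF, and 0.664 to 15.2 FPKM in BCRF8C. Cpa6, a secreted carboxypeptidase, went from 4.65 to 16.4 FPKM, from 1.13 to 12.6 FPKM and from 0.18 to 7.51 FPKM in the same order of lines. With BGJ398 the levels of Ltbp1 and Lpl came close to each other across lines, while in DMSO their BBC libraries were the highest. Prl8a1, a placental member of the prolactin family, stood at 16.4 FPKM in DMSO and 42.3 FPKM with BGJ398 in BBC, at 3.21 and 25.7 FPKM in ZNF, and at 6.49 and 95.5 FPKM in BCRF8C. Every BGJ398 value of Prl8a1 was above every DMSO value. Psg16, a pregnancy-specific glycoprotein, gave log2 ratios averaging 1.99 ± 0.82 (SD, n = 3 lines).

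The group also held enzymes and mitochondrial proteins. Hsd3b2, of the 3-beta-hydroxysteroid dehydrogenases of steroid synthesis, stood at 12.3 FPKM in DMSO and 47.6 FPKM with BGJ398 in BBC, at 3.45 and 28.7 FPKM in ZNF, and at 2.41 and 52.4 FPKM in BCRF8C. Its lowest ratio among the lines, 1.87, was the highest such value of any member with a gene name. Mrpl48, a protein of the mitochondrial ribosome, went from 79.7 to 234 FPKM in BBC, 50.9 to 143 FPKM in ZNF, and 24.1 to 136 FPKM in BCRF8C. Its agents did not overlap, and it was the member with the second highest mean level in DMSO, after Mid1. Dhtkd1, an enzyme of lysine breakdown in mitochondria, gave log2 ratios averaging 1.96 ± 1.07 (SD, n = 3 lines).

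Among regulators of transcription, Ssbp2, a partner of the LIM domain cofactor LDB1, stood at 72.6 FPKM in DMSO and 201 FPKM with BGJ398 in BBC, at 40.2 and 127 FPKM in ZNF, and at 32.0 and 272 FPKM in BCRF8C. Prdm11, of the PR domain family, went from 6.66 to 22.1 FPKM in BBC, 3.68 to 13.4 FPKM in ZNF, and 2.50 to 33.4 FPKM in BCRF8C. Every BGJ398 library was above every DMSO library for both genes. Spic, an ETS factor known from red pulp macrophages, had log2 ratios of 1.26 in BBC, 2.50 in ZNF and 3.37 in BCRF8C. Obox3, a homeobox gene of the oocyte, had ratios of 1.37, 2.57 and 3.23 in the same order of lines.

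Cytoskeletal, membrane and trafficking proteins made up a further 10 members. Caps2, a calcium-binding protein, stood at 12.9 FPKM in DMSO and 37.6 FPKM with BGJ398 in BBC, at 2.81 and 18.6 FPKM in ZNF, and at 3.68 and 70.7 FPKM in BCRF8C. Ap1s3, a subunit of the clathrin adaptor AP-1, went from 8.90 to 19.3 FPKM in BBC, 4.02 to 12.5 FPKM in ZNF, and 10.6 to 109 FPKM in BCRF8C. For Ap1s3 the highest DMSO library was that of BCRF8C, and the BGJ398 library of the same line stood far above the other two. Mean log2 ratios ran from 1.67 for Ccdc141 to 2.53 for Pcdh15, a cadherin of the inner ear, among the remaining 8, which were Parva (an adhesion adaptor bound to actin), Gjd3 (a connexin), Cpne8 (a copine), Opcml (an adhesion molecule of neurons), Dcdc2c (a doublecortin domain protein), Wdr17, Ccdc141 and Pcdh15. Ctla2a, an inhibitor of cysteine proteases, had the smallest mean ratio of any member outside the clone names, at 1.57 ± 0.39 (SD, n = 3 lines).

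The last 9 members carried no ordinary gene name. CR956641.1, named after a genomic clone, stood at 4.75 FPKM in DMSO and 23.3 FPKM with BGJ398 in BBC, at 1.67 and 22.4 FPKM in ZNF, and at 3.32 and 27.3 FPKM in BCRF8C. It was the 1 member with a log2 ratio of at least 2 in all 3 lines. RP23-148H17.3.1, an unprocessed pseudogene in the GENCODE vM21 annotation, went from 21.4 to 75.3 FPKM in BBC, 4.15 to 42.4 FPKM in ZNF, and 2.10 to 48.6 FPKM in BCRF8C. Telomerase-vert, an RNA annotated from its likeness to the telomerase RNA, went from 2.94 to 10.2 FPKM in BBC, 0.001 to 11 FPKM in ZNF, and 0.321 to 6.30 FPKM in BCRF8C. In all 3 of these entries the agents did not overlap. The value of 0.001 FPKM is the lowest above 0 in the table and says little about the true level. The others were BX000694.1, RP23-278M16.2.1, ENSMUSG00000093489 and ENSMUSG00000093683 (both named after genomic clones in the table), AI838599 and AY512931. Under their vM21 symbols, 4 of the 40 would have belonged to classes that the rule set aside (RP23-148H17.3.1 and Telomerase-vert as Riken cDNA clones, ENSMUSG00000093489 as the predicted gene Gm20625, ENSMUSG00000093683 as the pseudogene Obox4-ps34).

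**Figure D1:**
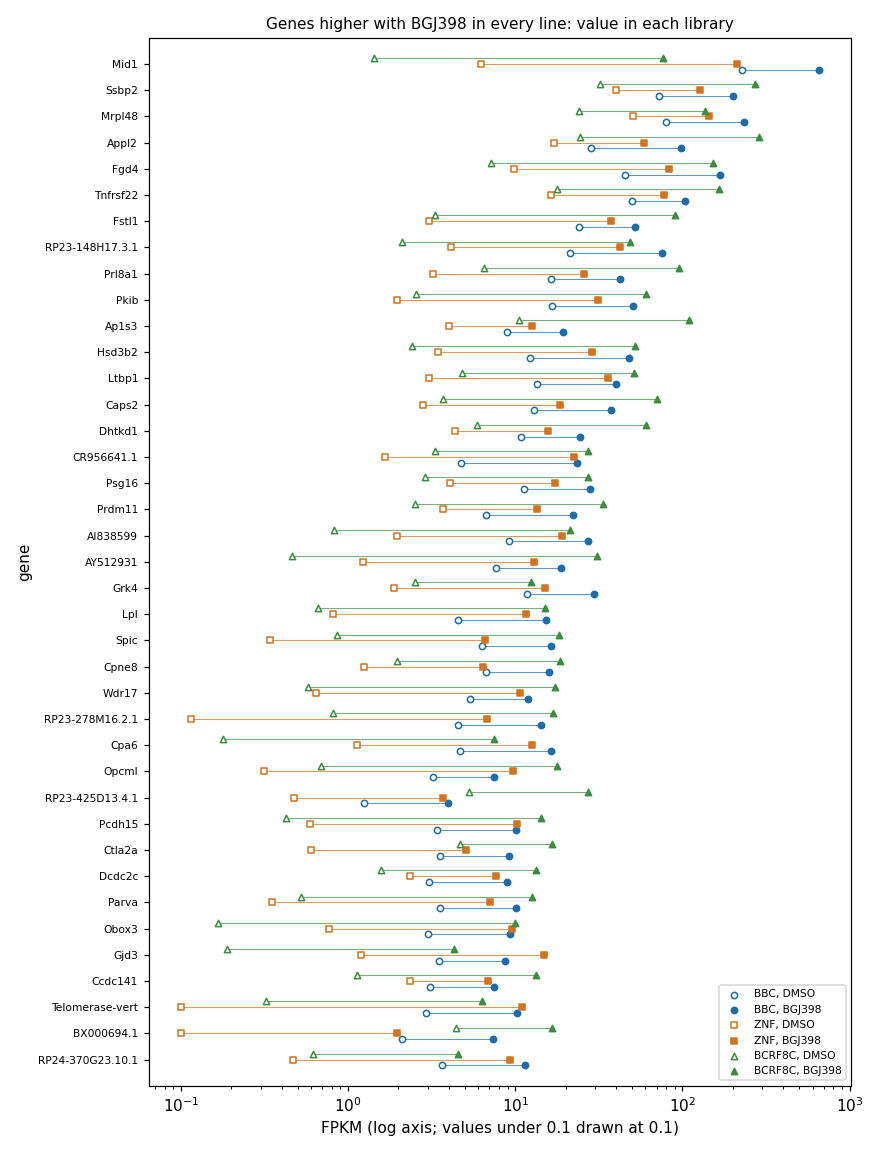
FPKM (log axis, with values under 0.1 drawn at 0.1) of 39 of the 40 genes in each of the 6 libraries, with open symbols for DMSO, filled symbols for BGJ398, a shape and colour for each line, and a line joining the 2 libraries of a cell line. In BBC (circles) the DMSO values start further to the right than in the other lines for all genes shown but 4.

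At the edge of the rule, the members with the smallest lowest ratio included Wdr17 (1.03) and Opcml (1.0). The entries just outside were Ugt3a1 (0.998), Tmc5 (0.98) and Dux (0.97), and in all of these the limiting line was BBC. Ugt3a1 went from 5.65 to 12.3 FPKM in BBC, and Opcml from 3.21 to 7.43 FPKM, so the threshold parted genes of nearly equal change.

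The 3 lines differed in how much the members gained. The median log2 ratio was 1.36 in BBC (range 1.0 to 2.08), 2.61 in ZNF (1.23 to 4.88) and 3.20 in BCRF8C (1.63 to 5.01), while over the 7373 kept entries it was -1.34, -0.66 and -1.31. A ratio of at least 1 was found for 102 kept entries in BBC (1.38%), 189 in ZNF (2.56%) and 217 in BCRF8C (2.94%). Among the 40 members, as deposited, BBC had the lowest ratio in 38 and BCRF8C the highest in 33. The place of BCRF8C held under the other scalings, at 36 members after scaling by the median of ratios, 36 after quantile normalization and 35 after removal of the trend of the ratio on expression. That of BBC did not: it was the lowest in 26, 12 and 18 members, and ZNF was the lowest in 13, 25 and 18. The order of BBC and ZNF therefore depends on how the libraries are scaled.

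**Figure D2:**
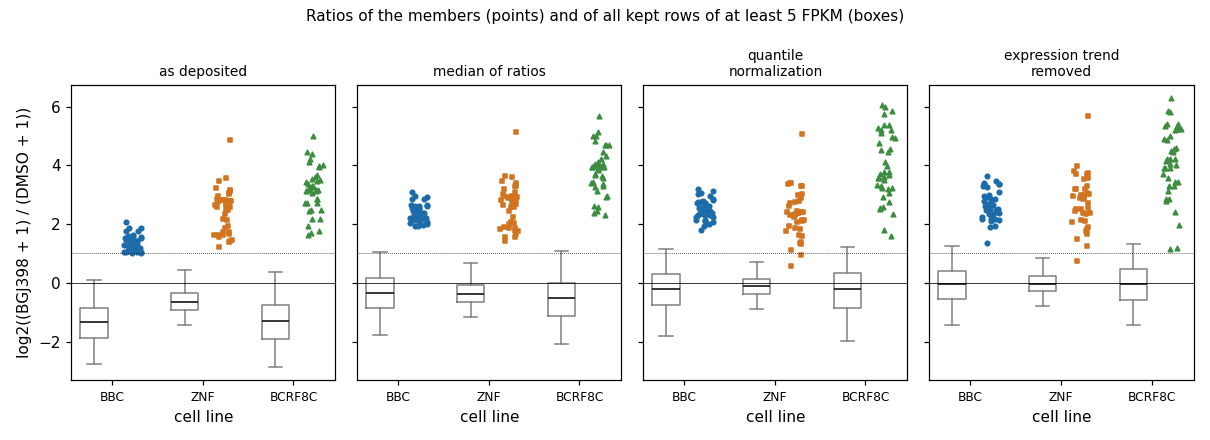
Log2 ratio of BGJ398 to DMSO in each line as deposited and under 3 scalings, with points for the 40 members and boxes (median, quartiles and whiskers without outlying entries) for all kept entries of at least 5 FPKM. The points lie above 0 in all panels, and the boxes move from a median of -1.34 in BBC as deposited to -0.06 after the trend was removed.

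The scalings moved the members and the other genes by different amounts. The median of the 7373 kept entries moved from -1.34 to -0.33 in BBC, -0.66 to -0.39 in ZNF, and -1.31 to -0.53 in BCRF8C with the median of ratios. The medians of the members moved to 2.32, 2.75 and 3.91 in the same order. After quantile normalization the medians of the members were 2.47, 2.36 and 3.74, and those of the kept entries -0.20, -0.11 and -0.22, so that in ZNF the members' median came down while that of the kept entries went up. All 40 kept a ratio of at least 1 in every line with the median of ratios, 38 did after quantile normalization and 39 after removal of the trend. The exceptions were in ZNF, with BX000694.1 at 0.59 (quantile) and 0.74 (trend) and Gm20625 at 0.94 (quantile).

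Levels in DMSO were low for most members, which the ratio in the rule favours. Their median was 6.66 FPKM in BBC, 1.91 FPKM in ZNF and 2.26 FPKM in BCRF8C, against 21.4, 19.9 and 22.3 FPKM over the kept entries. With BGJ398 it was 19.1, 13.2 and 24.3 FPKM, against 7.82, 12.5 and 8.62 FPKM. Among all entries of a library, the median rank percentile of the members went from 51.2 to 88.6 in BBC, 40.9 to 75.4 in ZNF, and 41.8 to 91.6 in BCRF8C. The mean over the 3 DMSO libraries was under 5 FPKM in 23 members (57.5%) and in 101 of the kept entries (1.37%). An entry with so low a DMSO mean reaches a mean of 5 FPKM over the 6 libraries through its BGJ398 libraries alone, so these 101 were selected by the change itself and the excess of members among them is built into the rule. The DMSO mean was 50 FPKM or more in 1704 kept entries. Mid1 and Mrpl48 were the 2 members in that top class, so low DMSO levels were common in the group but not shared by all of it. In all 3 DMSO libraries 22 members reached 1 FPKM, 18 did not, and below 0.5 FPKM stood 0 members in BBC, 8 in ZNF and 7 in BCRF8C.

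**Figure D3:**
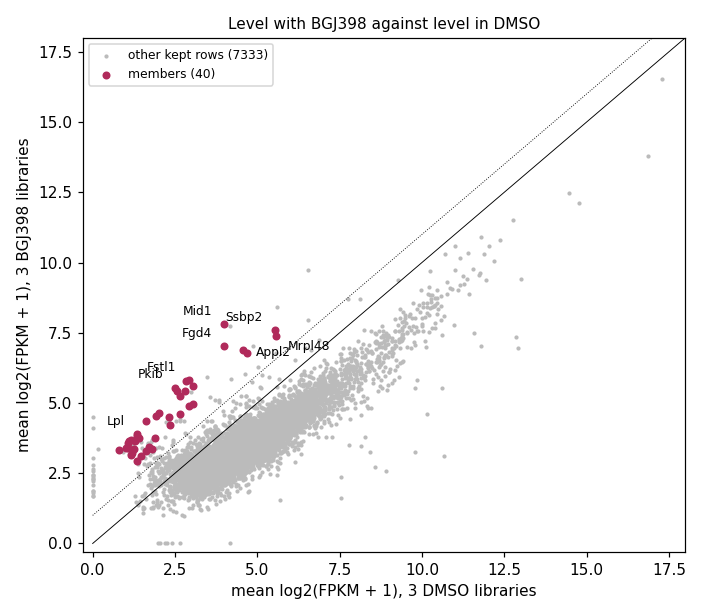
Mean log2(FPKM + 1) over the 3 BGJ398 libraries against that over the 3 DMSO libraries, for the 40 members (large points) and the other 7333 kept entries of at least 5 FPKM (small points), with a solid line of equality and a dotted line 1 unit above it. Most members lie at the low end of the DMSO axis, and Ssbp2, Mrpl48 and Appl2 lie further right.

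The lines were less alike in DMSO than with BGJ398. The DMSO level was highest in BBC for 36 of the 40 members (90%), against 28.6% of the kept entries. Among the 78 other kept entries with a DMSO mean under 5 FPKM it was highest in BBC for 70.5%, so this trait is not particular to the members. The exceptions were BX000694.1, Ctla2a, Gm20625 and Ap1s3, all highest in BCRF8C. With BGJ398 the highest library was BCRF8C for 27 members, BBC for 11 and ZNF for 2. The range across lines, as a difference of log2(FPKM + 1), had a median of 1.85 in DMSO and 1.09 with BGJ398 among members, and it was smaller with BGJ398 for 32 (80%). Over the kept entries the median range was 0.83 in DMSO and 1.23 with BGJ398, and 35.9% had the smaller range with BGJ398. Of the 78 other entries with a low DMSO mean, 52.6% had the smaller range with BGJ398. Every BGJ398 library was above every DMSO library in 36 members (90%), against 65 of the kept entries (0.882%). Since the ratio chose the members, nothing is read from that share. The exceptions were Mid1, BX000694.1, Gm20625 and Cpne8.

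The ratio can also be read in a line that a rule on the other lines did not use. The group was proposed with all 3 lines known, so this reading is a description. For this the rule was applied to 2 lines, with the mean over their 4 libraries, and the ratio was read in the line left out. Genes chosen on ZNF and BCRF8C numbered 81, and in BBC 39 of them (48.1%) had a ratio of at least 1, against 1.19% of 7291 entries. This share was 83.8% after the median of ratios, 82.4% after quantile normalization and 80.3% after removal of the trend. As deposited, their median in BBC was 0.98, against -1.34 over those entries, and 73 were above 0. Genes chosen on BBC and BCRF8C numbered 48, and 42 (87.5%) reached 1 in ZNF, against 2.87% of 7306 entries, with a median of 2.15. Under the 3 scalings this share was 53.6%, 44.8% and 46.9%, below that read in BBC, so the order of the lines in this reading depends on the scaling. Genes chosen on BBC and ZNF numbered 46, and 39 (84.8%) reached 1 in BCRF8C, against 3.42% of 7221 entries, with a median of 3.15. As deposited, members of the group were 37 of the 39 genes that reached 1 in BBC, 38 of the 42 in ZNF and 36 of the 39 in BCRF8C. The values read are thus mostly those that the rule on 3 lines already used. No test was made, since a line had 1 library per agent.

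**Figure D4:**
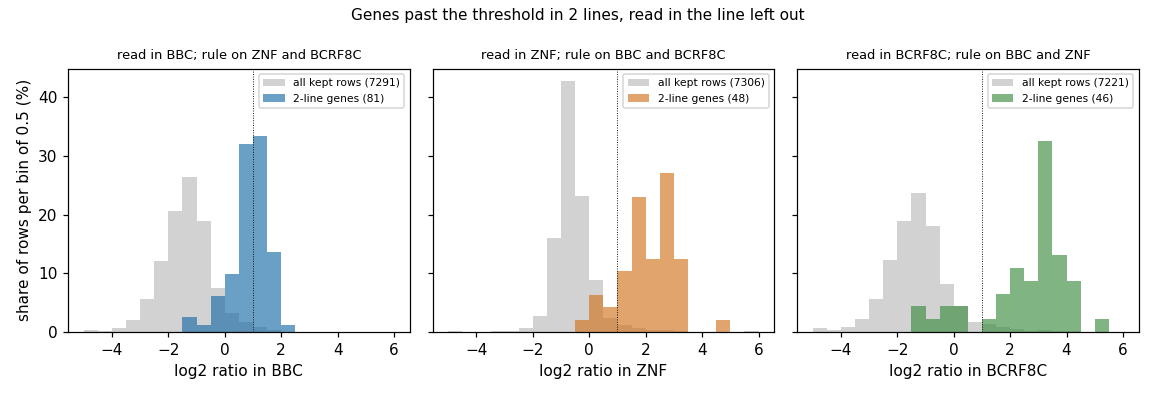
Log2 ratio in the line left out, in bins of 0.5, as a share of rows, for genes past the threshold in the other lines (coloured, with their number) and for all kept entries averaging 5 FPKM or more in those lines (grey). The dotted line marks a ratio of 1, and the coloured bars centre on 0.98 in BBC, 2.15 in ZNF and 3.15 in BCRF8C.

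As deposited, 8 of the 81 genes were not above 0 in BBC, 3 of the 48 (Pax6, S1pr1 and Tlr13) in ZNF and 6 of the 46 in BCRF8C. Which genes these were changed with the scaling. Tlr13, a receptor for bacterial RNA, was not above 0 in ZNF as deposited and under all 3 scalings, and Lrp11 and CT573034.1 were likewise in BCRF8C. These names were chosen after their values were seen.

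Length was not used by the rule. Of the 40 members, 36 matched a gene of GENCODE vM21 by identifier, and 30 of these were protein coding. The annotated gene was longer among members, with a median of 61.1 kb against 23.5 kb over 7287 kept entries, and 14 (38.9%) were over 100 kb, against 10.8%. This holds for the kept symbols: when no symbol class was set aside, the median of the genes past the ratio and the mean was 8.63 kb. Of 74 matched other kept entries with a DMSO mean under 5 FPKM, 24 (32.4%) were over 100 kb, a share near that of the members. Their median length was 30.4 kb. Pcdh15 spanned 1550.4 kb, Opcml 1135 kb, Cpa6 395 kb, Ltbp1 387 kb and Mid1 321 kb. Short genes were present as well, with 8 (22.2%) under 10 kb against 24.8% of the kept entries. The exons summed to a median of 4872 bp, against 4519 bp over the kept entries. The median ratio of the kept entries was higher in longer genes, going from -1.72 under 10 kb to -0.84 over 100 kb in BBC, -0.76 to -0.44 in ZNF, and -1.85 to -0.78 in BCRF8C. The part of length in the group was not tested. The transcripts of members had a median GC content of 45.8%, against 49.3%.

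**Figure D5:**
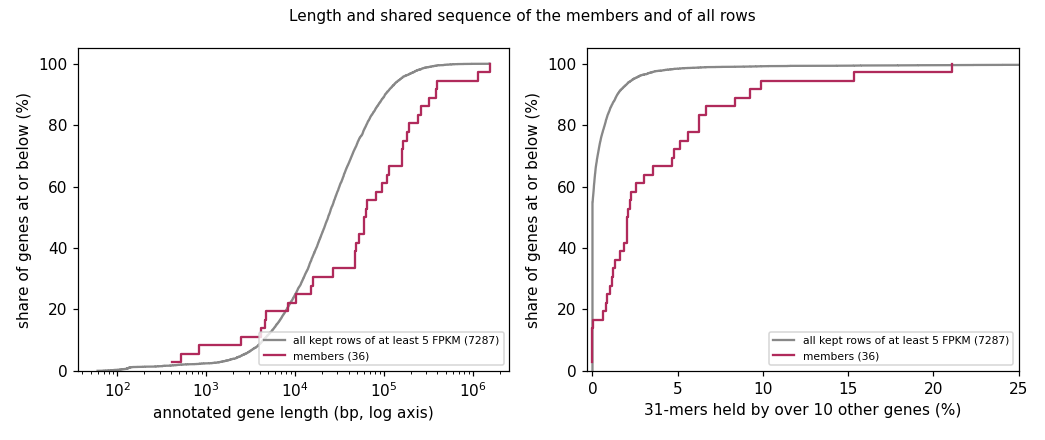
Cumulative share of genes by annotated gene length (left, log axis) and by the percentage of 31-base words that occur in over 10 other genes (right), for the 36 members matched to the annotation and the 7287 matched kept entries. The members' curves lie to the right, with medians of 61.1 kb against 23.5 kb and 2.05% against 0%.

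Members also shared sequence with many other genes. Each vM21 transcript was cut into words of 31 bases, and the percentage of a gene's words that occur in over 10 other genes was taken as a measure of repeated sequence. It was at least 1% in 27 of 36 members (75%), against 15.2% of the kept entries, and at least 5% in 10 (27.8%), against 1.62%. The share of kept entries that were members was 0.125% where no word was repeated, 0.183% up to 1%, 1.72% from 1% to 5% and 8.47% (10 of 118) from 5%. Over all 118 kept entries of at least 5% the median ratio was -2.03 in BBC, -0.94 in ZNF and -2.16 in BCRF8C. Mid1, Gjd3, Obox4-ps34 and Telomerase-vert were among the 5 members with none of it. How the authors assigned reads that fit several genes is not given in the sources used here, and the part of shared reads in these values was not tested.

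Some members shared a part of their words with another gene entry, which can make the value uncertain. Hsd3b2 shared 14.7% of its words with Hsd3b3 and 11.3% with Hsd3b6, Ctla2a 20.7% with Ctla2b, Obox3 19.9% with Obox3-ps3, and Mid1 16.3% with Mid1-ps1. Telomerase-vert shared 93.7% with a further gene entry of the annotation. Some partners had an entry that also passed the ratio and the mean: Gm17131, which shared 6.47% with RP23-148H17.3.1, stood at 244 FPKM in DMSO and 927 FPKM with BGJ398 in BBC, at 55.0 and 510 FPKM in ZNF and at 40.2 and 1187 FPKM in BCRF8C. Gm4117 with Cpa6, Gm11261 with Fstl1, Cep112it with AY512931 and 4930511M06Rik with Opcml were of the same kind. Most of the partners looked up that had an entry did not pass, among them Samsn1 with Caps2, Ppib with AY512931 and Krit1 with Psg16. In the table, 8 members shared their locus field with other entries. Within the locus of Wdr17, Gm15758 went from 37.6 to 91.9 FPKM in BBC, 3.81 to 47.2 FPKM in ZNF, and 5.63 to 128 FPKM in BCRF8C, at levels above those of Wdr17 in all 6 libraries. Most entries that shared a locus with a member did not pass the ratio and the mean. In the locus of Mrpl48, Rab6a fell from 41.8 to 16.1 FPKM in BBC. Rab6a also fell from 46.3 to 30.0 FPKM in ZNF and from 68.8 to 30.4 FPKM in BCRF8C. Whether reads were counted by strand is not given in the sources used here, so how far reads of overlapping entries were mixed is not known.

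Classes of genes fixed by symbol were counted beside the members. Cadherins and protocadherins had 1 member of 3 entries averaging 5 FPKM or more (Pcdh15), and exchange factors of the Fgd and Arhgef kind 1 of 8 (Fgd4). Fgd4 was a marker of the group before its class was counted. The other classes held no member, among them Trim symbols (0 of 23), trace amine and other orphan receptors (0 of 12), serpins (0 of 6) and cytochromes P450 (0 of 5). Over the kept entries the share was 0.543%, and single members in such small classes show neither an excess nor the lack of one. Most entries of the classes known for roles outside blood lay below 5 FPKM and could not become members. The 18 collagen entries had a median of 0.549 FPKM in DMSO and 1.38 FPKM with BGJ398 in BBC, 0.0378 and 1.25 FPKM in ZNF, and 0.0622 and 2.30 FPKM in BCRF8C. The 31 potassium channel entries had medians of 0.802 and 1.79 FPKM, 0.0480 and 1.70 FPKM, and 0.0676 and 1.93 FPKM in the same order of lines, so in both classes the median was higher with BGJ398 in every line. The 447 olfactory receptor entries, genes that blood cells are not known to need, had a median of 0.448 FPKM in DMSO and 1.41 FPKM with BGJ398 in BBC, 0.001 and 0.944 FPKM in ZNF, and 0.001 and 2.29 FPKM in BCRF8C. In BBC, 2330 entries stood below 0.5 FPKM in DMSO but over 1 FPKM with the inhibitor, and 521 the reverse. The same counts were 2287 and 117 for ZNF, and 3686 and 229 for BCRF8C. Entries of at least 10 FPKM fell in number from 7096 to 3766 in BBC, 6566 to 5321 in ZNF, and 6823 to 3826 in BCRF8C. The part of this change of the whole libraries in the members' ratios was not tested.

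The partners of the 4 markers were read in 1 fit over all 14232 entries averaging 1 FPKM or more (limma with the line as a block, Benjamini-Hochberg adjusted p under 0.05). It called 941 higher (6.61%) and 4295 lower (30.2%) with BGJ398, with a median log2 change of -0.69, and 3 higher and 1 lower after the median of ratios, 2 and 1 after quantile normalization and 0 after removal of the trend (3084 at an unadjusted p under 0.05). Without the BBC line it called 0, with 2991 at an unadjusted p under 0.05. Calls of list genes below are therefore relative to a table that fell as a whole. Where the change of a called gene is given, that after quantile normalization stands beside it.

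Of 14 other genes of PKA signalling, 5 fell, 0 rose, also at an unadjusted p under 0.05, and 9 did not pass, with a median log2 change of -0.90 against -0.69 over all entries. These counts are near the shares over all entries, where 30.2% fell and 6.61% rose. After quantile normalization 8 of the 14 were above 0, such as Pde4d, a cAMP phosphodiesterase, at 1.08, and the median was 0.07. Akap1, an anchor of PKA at mitochondria, went from 15.7 to 1.76 FPKM in BBC, 14.1 to 8.0 FPKM in ZNF, and 15.8 to 3.01 FPKM in BCRF8C (log2 change -1.80 ± 0.95, SD, n = 3 lines, lower in 3 of 3; limma adjusted p = 0.0348; -1.45 after quantile normalization). Prkaca, the catalytic subunit that Pkib inhibits, had a change of -1.31 ± 0.42 (limma adjusted p = 0.0349), which was -0.45 after quantile normalization. The others were Prkar2b, Creb1 and Akap8, and Creb1 turned from -1.05 to 0.05 after quantile normalization.

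Of 6 other genes of the PP2A and MID1 list, 4 fell (Mid1ip1, Ppp2ca, Ppp2cb and Ppp2r1a), 0 rose, also at an unadjusted p under 0.05, and Igbp1 and Mid2 did not pass, against 30.2% of all entries that fell. The 4 that fell all averaged over 5 FPKM, and a fit on the 9109 entries averaging 5 FPKM or more called 4910 lower. The median of the 6 genes was -1.48 as deposited and -0.30 after quantile normalization, where Igbp1 (0.20) and Mid2 (0.22) were above 0. Mid1ip1, which encodes a protein that binds MID1, went from 64.8 to 13.2 FPKM in BBC, 9.95 to 3.49 FPKM in ZNF, and 28.3 to 3.6 FPKM in BCRF8C (log2 change -2.06 ± 0.71, SD, n = 3 lines, lower in 3 of 3; limma adjusted p = 0.0348; -1.26 after quantile normalization). The catalytic subunit Ppp2ca had a change of -1.27 ± 0.43 (limma adjusted p = 0.0394), which was -0.08 after quantile normalization and 0.03 after removal of the trend, so its direction depends on the scaling. Mid2, the closest relative of Mid1, stood at 1.71 FPKM in DMSO and 2.11 FPKM with BGJ398 in BBC and at 7.0 and 5.32 FPKM in BCRF8C, and was listed at 0 in both ZNF libraries.

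Around Fgd4, 3 of 11 genes of the FGD family and CDC42 signalling fell (Cdc42, Cdc42se1 and Was), 0 rose, also at an unadjusted p under 0.05, and the median was -0.22, which was 0.10 after quantile normalization. The count is near the 30.2% of all entries that fell. Cdc42, the GTPase that frabin loads, went from 169 to 49.0 FPKM in BBC, 155 to 79.3 FPKM in ZNF, and 390 to 102 FPKM in BCRF8C (log2 change -1.55 ± 0.52, lower in 3 of 3; limma adjusted p = 0.0429). After quantile normalization the change of Cdc42 was -0.08 and after removal of the trend 0.09. The relatives Fgd1, Fgd2, Fgd3 and Fgd6 did not pass, with changes of 0.42, 0.02, -0.59 and 0.33.

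Around Fstl1, 1 of 10 genes of the follistatin family and BMP signalling rose, 1 fell and 8 did not pass, with a median of -0.06, against 6.61% of all entries that rose and 30.2% that fell. After quantile normalization the median was 0.29. Smad6, an inhibitor of BMP signals, went from 1.37 to 3.44 FPKM in BBC, 0.643 to 7.27 FPKM in ZNF, and 0.273 to 3.28 FPKM in BCRF8C (log2 change 1.66 ± 0.72, SD, n = 3 lines, higher in 3 of 3; limma adjusted p = 0.0350; 1.49 after quantile normalization). Its mean over the libraries was below the 5 FPKM that the rule asked of members. Id3, a target of BMP signals, had a change of -1.64 ± 1.08 (limma adjusted p = 0.0388), which was -1.18 after quantile normalization.

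Markers of cell types were read beside the group, and none of the members stood on their lists. The BBC libraries held the B-lineage markers, with a sum over 8 genes of 1448 FPKM in DMSO and 747 FPKM with BGJ398, against at most 9.54 FPKM in the other lines, where Cd79b, Vpreb1 and Igll1 were listed at 0. The ZNF libraries held the T-lineage markers, with 839 and 534 FPKM over 5 genes, against at most 34.7 FPKM elsewhere. Cd8a was called higher with BGJ398 (log2 change 1.14, and 0.82 after quantile normalization). The other 4 T-lineage markers tested (Cd3d, Cd3g, Lck and Tcf7) did not pass. Each of these was lower with BGJ398 in ZNF, such as Tcf7, which went from 217 to 128 FPKM. Of 8 stromal markers 3 had an entry, Lum being listed at 0 in ZNF. The sum of the 3 ran from 0.372 to 3.16 FPKM over the DMSO libraries and from 3.20 to 16.6 FPKM over those with BGJ398. Col1a1 was called higher (log2 change 1.77, higher in 3 of 3 lines, limma adjusted p = 0.0449, and 1.69 after quantile normalization). Col1a2 did not pass (log2 change 1.20, and 0.96 after quantile normalization). Of 7 neuronal markers 4 had an entry, with sums from 2.16 to 89.2 FPKM in DMSO and from 8.70 to 15.4 FPKM with BGJ398. Syt1 (log2 change 1.35, and 1.11 after quantile normalization) and Rbfox3 (1.59 and 1.09) were called higher. Syp (0.86) and Tubb3 (-1.44) did not pass. Tubb3 went from 7.42 to 1.58 FPKM in BBC, 88.7 to 7.44 FPKM in ZNF, and 0.932 to 2.37 FPKM in BCRF8C. Of 5 endothelial markers 2 had an entry, with sums from 14.1 to 77.9 FPKM in DMSO and from 13.7 to 44.4 FPKM with BGJ398. Vwf was called higher (log2 change 1.98, and 2.07 after quantile normalization). Pecam1 did not pass, with a change of -0.83, which was 0.30 after quantile normalization. Of 7 myeloid markers 2 had an entry, with sums from 0 to 5.97 FPKM in DMSO and from 0 to 5.18 FPKM with BGJ398, Mpo and Lyz2 being listed at 0 in ZNF, and the 2 of 5 erythroid markers were listed at 0 in ZNF and BCRF8C. Of the 6 epithelial markers 0 had an entry, so they could not be read. The part of other cells in the members' values was not tested, and in bulk libraries fewer cells of a type and less RNA per cell cannot be told apart.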

How the data were processed

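RNA sequencing libraries of 3 mouse SCLL cell lines, with BGJ398 and with DMSO, gave 1 table of FPKM values that the authors deposited. The tools TopHat2 2.0.12 and bcl2fastq, and the mouse build NCBIM37, are named per the submitters' processing notes. Not given in the sources used here are how FPKM was computed, from which annotation, and how multimapped reads were handled. The depth is unknown, so no counting interval was computed. The deposited FPKM values were analysed as log2(FPKM + 1), with no rescaling, in Python 3.11.15. This scale understates the change of low genes.

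The members and gene lists were chosen with earlier results of these data known. Entries averaging 1 FPKM or more were tested across lines with limma 3.58.1 in R 4.3.3 (trend, two-sided, cell line as block, 2 residual degrees of freedom, Benjamini-Hochberg over all entries), which was tested on simulated data. The p-values measure the spread between 3 lines at 3 doses, with no repeat cultures named. Both libraries of a pair come from 1 cell line, and their deviations from the group means correlated at 0.454 (BBC), 0.541 (ZNF) and 0.549 (BCRF8C, all same-line pairs). Members were not tested. The values of 1 member are not reported here. The ± values are SDs over lines.

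Members with their values were named by rule: the 4 markers, the 12 with the largest lowest ratio, the 5 with the highest mean in DMSO, up to 10 by mean ratio among those of at least 1 FPKM in all DMSO libraries, those at the edge of the ratio threshold, and any called gene of a list. Others were named after their values were seen. Lengths, GC content and shared 31-base words came from GENCODE vM21, matched by identifier, and promoters from RefSeq on GRCm38.p6. These are other builds than that of the table, and no coordinate was converted. Alternatives were pseudocounts, filters on the mean, 3 scalings (median of ratios, quantile, and removal of the trend by lowess), no block, and leaving out each line.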

Additional observations from a re-analysis of the deposited data

How the results depend on the processing

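The number of genes past the rule, 40 as reported, depends most on the floor and the scaling. It was 19 with a pseudocount of 5 FPKM, 219 with a mean of at least 1 FPKM, 21 with a mean of at least 10 FPKM and 232 with no filter on the mean. It was 84 after the median of ratios, 91 after quantile normalization and 112 after removal of the trend. Of the 40 members, 40, 38 and 39 were among these. Leaving out a line gave 46 to 81, the highest without BBC. For the pairing, limma called 5236 entries with the line as a block and 7 without the block. With the block it called 4 after the median of ratios, 3 after quantile normalization and 0 after removal of the trend, and 0 to 4974 when a line was left out (0 without BBC, 4974 without ZNF, 1648 without BCRF8C).

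The share of genes chosen on ZNF and BCRF8C that reached a ratio of 1 in BBC, 48.1% as reported, was 83.8% after the median of ratios, 82.4% after quantile normalization, 80.3% after removal of the trend and 60.7% with a pseudocount of 0.1 FPKM. The share read in ZNF, 87.5% as reported, was 53.6%, 44.8% and 46.9% under the 3 scalings, where more genes passed in the other lines. The share read in BCRF8C stayed from 71.8% to 85.5%. The median gene length, 61.1 kb as reported, was 8.63 kb when no symbol class was dropped, from 53.7 to 61.1 kb when a line was left out and 88.0 kb for protein-coding members, an alternative chosen after the data were seen. The median DMSO level, 3.27 FPKM, was 7.12 FPKM with a mean of at least 10 FPKM, 3.03 to 4.19 FPKM when a line was left out and 4.84 FPKM for protein-coding members. The cause of these shifts was not tested. Each line has 1 library per agent, and unknown depth limits what can be said of values near 1 FPKM.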
